A study of Mus musculus with 13 samples.

Results

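Layer 6b genes were followed in mouse brain sections and in dissociated neurons of the mouse retrosplenial cortex, a midline cortical area. They were taken by name: Cplx3, Ccn2, Nxph4, Moxd1 and Tmem163, where Ccn2 is listed under its older name Ctgf in the cell table. All 5 genes had a row in both count tables, among 15114 genes of 765 cells and among 32285 genes of 1973 spots. Both tables hold counts, given here as CPM, the count divided by the total of the cell, or of the cells or spots summed together, times 1000000. All mice were wild-type, the cells from strain B6, and the labels name no treatment. The cells were neurons pooled over acute slices, 256 from the anterior, 217 from the medium and 292 from the posterior level of the dissection. They formed 11 samples of 3 animals, with samples 1 to 3 from animal 1, 11 to 14 from animal 2 and 15 to 18 from animal 3. Spots came from 2 flash-frozen sections of 10 µm stained for NeuN and DAPI, called S4 and S8, and a spot can hold several cells or part of one.

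Layer 6b is the thin, deepest layer of the cortex, lying on the white matter, and in rodents many of its neurons descend from the early-born subplate. Its excitatory neurons are known for a set of marker genes that the layers above express little. The markers encode unlike proteins. Cplx3 is a complexin, which binds the SNARE complex at synapses; Nxph4 is a neurexophilin, a secreted ligand family of the neurexins; and Ccn2 is a secreted matrix protein and a classical target of the Hippo pathway. Moxd1 resembles the copper monooxygenase that makes noradrenaline, and Tmem163 is a zinc transporter of vesicle membranes.

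The genes lie on 3 chromosomes. In the RefSeq annotation of GRCm38.p6, Cplx3 spans chr9:57599992-57606281, Tmem163 spans chr1:127490342-127678021 and Nxph4 spans chr10:127525473-127534559. Moxd1 (chr10:24223517-24302783) and Ccn2 (chr10:24595442-24598683) are neighbours on chromosome 10, 292658 bases apart, with 3 annotated genes and 0 protein-coding genes between them. Cplx3, Moxd1 and Tmem163 were counted together in some cells, but of the 86 cells with Tmem163 only 11 had Cplx3 and 7 had Moxd1. For these 3 of the 5 genes RefSeq gave the 250 bases before the annotated start, which are shown here. Each is written 5′ to 3′ on the strand of its gene, with matches to the E-box CACGTG in capitals: Cplx3 on the minus strand (chr9:57606282-57606531), Moxd1 on the plus strand (chr10:24223267-24223516) and Tmem163 on the minus strand (chr1:127678022-127678271).
Cplx3: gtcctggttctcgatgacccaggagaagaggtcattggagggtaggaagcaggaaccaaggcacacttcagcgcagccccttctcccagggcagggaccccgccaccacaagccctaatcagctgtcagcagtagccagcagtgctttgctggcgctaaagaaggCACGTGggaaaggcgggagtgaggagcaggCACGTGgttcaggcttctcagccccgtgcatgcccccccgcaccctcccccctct
Moxd1: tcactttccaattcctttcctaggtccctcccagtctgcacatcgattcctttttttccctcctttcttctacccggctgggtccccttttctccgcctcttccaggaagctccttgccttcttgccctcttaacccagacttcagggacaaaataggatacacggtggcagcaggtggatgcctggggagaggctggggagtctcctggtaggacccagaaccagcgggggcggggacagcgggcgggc
Tmem163: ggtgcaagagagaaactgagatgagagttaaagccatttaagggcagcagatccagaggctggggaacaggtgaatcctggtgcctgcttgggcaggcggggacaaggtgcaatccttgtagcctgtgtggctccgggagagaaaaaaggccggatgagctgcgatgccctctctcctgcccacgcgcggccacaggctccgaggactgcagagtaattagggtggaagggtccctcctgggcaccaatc
The Cplx3 window held 2 matches to CACGTG and the Moxd1 and Tmem163 windows held 0. Over all 32851 promoters of this length, 6.02% held that motif. None of the 3 windows held AAAGGTCA (the element bound by Nr4a2-type receptors, in 1.34% of all promoters), GGAATG (bound by TEAD proteins, 12.6%) or AGGTGTGA (a T-box element, 1.12%). Both strands were searched, and no CACGTG match overlapped a match to another motif. Other forms of the E-box were not searched.

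Total counts per sample ran from 2306470 to 15974543, with a median of 138331 per cell. Section S4 had 8436518 counts in all and S8 had 6389042, with medians of 8266.5 and 6705 per spot. The median per cell was 65843 in animal 1, 132797 in animal 2 and 185995 in animal 3. Of 331 distinct cell barcodes, 237 occurred in more than 1 sample, and 162 of 1811 spot barcodes occurred in both sections. A count of 0 over all 765 cells would allow a share of up to 0.392%. Intervals and such limits cover counting error only.

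Most neurons had no count of any layer 6b gene. Of the 765 cells, 610 had none, while Cplx3 was counted in 32 cells (4.18%), Ccn2 in 60 (7.84%), Nxph4 in 10 (1.31%), Moxd1 in 11 (1.44%) and Tmem163 in 86 (11.2%). The level per sample was uneven. Cplx3 ran from 0 CPM in samples 3 and 16 over a median of 1.40 to 147 CPM in sample 11. Ccn2 ran from 0.434 CPM in sample 3 over 3.94 to 48.8 CPM in sample 11. Nxph4 was at 0 in 7 of 11 samples and reached 5.51 CPM in sample 11, and Moxd1 was at 0 in 6 of 11 samples and reached 20.5 CPM there. Tmem163 was counted in every sample, from 0.125 CPM in sample 17 over a median of 6.07 to 24.2 CPM in sample 12. Samples 1, 2, 11 and 12 were the 4 highest of the 11 for each of the 5 genes.

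The 3 animals differed in the same way. Cplx3 measured 37.4 CPM in animal 1, 49.2 in animal 2 and 0.182 in animal 3, and Ccn2 measured 22.3, 19.0 and 3.52 CPM. Nxph4 stood at 0.837 and 1.70 CPM in animals 1 and 2 and Moxd1 at 2.05 and 7.14 CPM. In animal 3 both genes had 0 counts in 309 cells, which allows a share of up to 0.971%. Tmem163 measured 14.2, 11.9 and 3.47 CPM. Animal 3 had the lowest CPM of all 5 genes although its cells had the most counts. The share of cells with Ccn2 did not follow that order, at 7.24% in animal 1, 7.89% in animal 2 and 8.09% in animal 3. Without the 11 cells of the companion-rich class described next, Ccn2 stood at 1.61, 1.90 and 3.52 CPM, so that animal 3 was then the highest. With dissected cells, fewer layer 6b neurons and less RNA per cell cannot be told apart in such sums.

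Cells were grouped into 12 classes by gene expression without the 5 layer 6b genes, so that their own counts took no part in drawing a class. A list of 16 companion genes, markers named with layer 6b or the deep cortex but none of the 5, pointed to 1 class of 11 cells, which is called the companion-rich class. It held 4 cells of animal 1, 7 of animal 2 and 0 of animal 3, from samples 1, 2, 11 and 12. The same 11 cells formed a class at clustering resolutions of 0.5 and 2 and when the 5 genes were kept in. The label layer 6b was checked on this class. All 11 cells had counts of Slc17a7, the vesicular glutamate transporter of cortical excitatory neurons. So did 98.8% of the other cells, so Slc17a7 does not set the class apart. Of the other excitatory markers, Camk2a stood at 57.0 CPM in the class against 207 in the other cells, and Slc17a6 at 0 against 31.5. In the cell table, 12 of the 13 companions had higher CPM in the class than in the other cells together. Those companions chose the class, so their values are a description.

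In the companion-rich class the layer 6b genes were counted in nearly every cell. Of them, 7 of 11 cells had counts of 5 genes, 1 cell of 4, 2 cells of 3 and 1 cell of 2. Of the 754 cells outside, 610 had none, 137 had 1 gene, 6 had 2 and 1 had 3. The member of the class with 2 genes was a medium-level cell of sample 12, with 22 counts of Ccn2 and 33 of Tmem163 and 0 of the other three among 247062 counts in total. Total counts in the class ran from 18818 to 247062 per cell, and its 4 cells of animal 1 were the 4 shallowest.

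**Figure D1:**
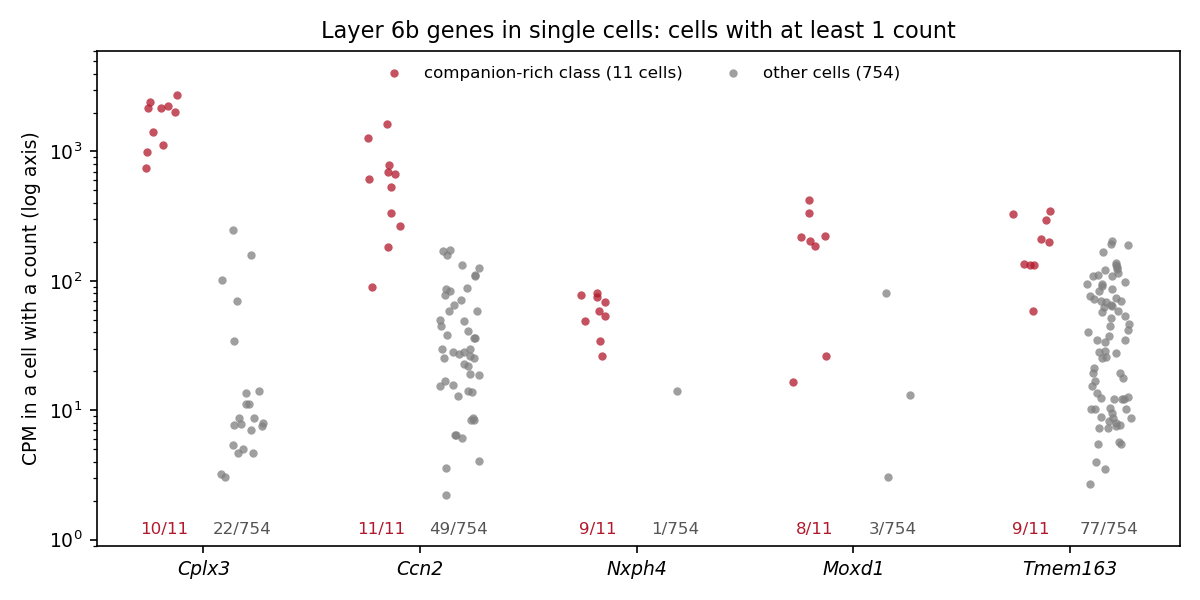
CPM of each layer 6b gene (log axis) in every cell with at least 1 count; red points are the 11 cells of the companion-rich class and grey points the other 754, with the number of such cells of each group written below. All Cplx3 and Nxph4 points of the class lie above the grey points of their gene, while the Ccn2, Moxd1 and Tmem163 points of the 2 groups overlap.

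Cplx3, the complexin, was counted in 10 of the 11 cells, with 0 to 536 counts and a median of 2004 CPM per cell. The class held 96.4% of all Cplx3 counts of the cell table. Summed over cells, Cplx3 stood at 1558 CPM in the class, with 2098 in animal 1 and 1491 in animal 2, against 0.837 CPM in the other cells. Outside, 22 cells (2.92%) had a count, at most 22, and 5 of them had 5 or more. The share outside was 4.198% of 262 cells in the samples that held class cells and 2.24% of 492 in the others, at median totals of 90158.5 and 165198.5.

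Nxph4, the neurexophilin, had the fewest counts outside. It was counted in 9 of the 11 cells, with 0 to 19 counts and a median of 53.1 CPM, and the class held 98.8% of its counts. The sum in the class was 52.1 CPM, with 49.7 in animal 1 and 52.4 in animal 2. A single cell outside, in the class led by Rprm and Syt6, had 1 count.

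Ccn2, the matrix protein, was counted in 11 of 11 cells, with 4 to 193 counts and a median of 611 CPM. The summed level was 611 CPM, with 1231 in animal 1 and 534 in animal 2, against 2.72 CPM in the other cells. Its counts were less concentrated, with 76.2% in the class. Outside, 49 cells had a count, the highest 24, and 21 of them had 5 or more.

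Moxd1, the copper monooxygenase, was counted in 8 of the 11 cells, with 0 to 103 counts and a median of 188 CPM. Its sum stood at 203 CPM, with 121 in animal 1 and 214 in animal 2. The class held 96.2% of its counts, and 3 cells outside had a count, at most 11. Tmem163, the zinc transporter, was counted in 9 of the 11 cells, with 0 to 69 counts and a median of 136 CPM, and summed to 178 CPM, with 232 in animal 1 and 172 in animal 2. Only 32.3% of the Tmem163 counts lay in the class. The other cells stood at 5.31 CPM, where 77 cells (10.2%) had a count, at most 36, and 38 of them had 5 or more.

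The class had too few cells for the test planned on sums of at least 10 cells per animal. On sums of at least 4 cells, a limit chosen after seeing the data, edgeR's quasi-likelihood test called Cplx3, Ccn2 and Tmem163 higher in the class than in the mean of the other classes, beside 3.87% of 13177 tested genes called higher. A call needed an adjusted p under 0.05 and a log2 fold change of at least 1. The adjusted p by edgeR was 1.97e-12 for Cplx3, 6.75e-11 for Ccn2 and 1.03e-06 for Tmem163. Fitted fold changes are not given, because several other classes held 3 counts or fewer of a gene. Nxph4 and Moxd1, with 1 and 13 counts in all other cells, passed the filter on low counts only through this class, so no test is given for them.

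Co-detection of the genes rested on the same cells. Cplx3 and Nxph4 were counted together in 10 cells, where the product of their shares gives 0.418 cells, and all 10 cells with Nxph4 had Cplx3 and Ccn2. Nxph4 and Moxd1 shared 8 cells against a product of 0.144. Cplx3 and Ccn2 shared 11 cells against 2.51, which is 34.4% of the Cplx3 cells and 18.3% of the Ccn2 cells. Tmem163 was the loosest: it shared 12 cells with Ccn2 against a product of 6.75. Outside the companion-rich class, the pair Cplx3 and Ccn2 shared 1 cell against 1.43, and Cplx3 and Tmem163 shared 3 against 2.25.

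Each gene was also held out in turn. Among the 18 cells with at least 2 of the other 4 genes, 10 (55.6%) had Nxph4, against 0 of the other 747 cells. Cplx3 was counted in 11 of 15 such cells (73.3%) against 2.80% of the rest, Ccn2 in 11 of 14 (78.6%) against 6.52%, and Moxd1 in 8 of 18 (44.4%) against 0.402%. Tmem163 was counted in 8 of 11 (72.7%) against 10.3%, the highest share among the rest. With every cell thinned to 50000 counts, which left out 3 of the 11 class cells, Cplx3 was counted in 7 of 8 class cells, Ccn2 in 8, Nxph4 in 7, Moxd1 in 6 and Tmem163 in 7.

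The 7 cells outside the class with more than 1 layer 6b gene lay in other classes. A medium-level cell of sample 11, in the class led by Rprm and Syt6, had 1 count of Cplx3, 2 of Ccn2 and 1 of Nxph4. Another 3 posterior cells of sample 11, all in the class led by C1ql2, Qrfpr and Mc4r, had both Cplx3 (1, 1 and 13 counts) and Tmem163 (4, 6 and 1 counts). The cell with the highest Cplx3 level outside was a posterior cell of animal 1 at 246 CPM, below every Cplx3 level counted in the companion-rich class.

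Most companion genes had higher CPM in the class than in the other cells. Nxph3, another neurexophilin, was counted in 11 of 11 cells at 81.5 CPM against 3.14, and Hs3st4, a heparan sulfate sulfotransferase, in 11 of 11 at 170 against 22.9. Drd1, the dopamine D1 receptor, was counted in 10 of 11 cells at 94.4 CPM against 4.11. Lpar1, a lysophosphatidic acid receptor, stood at 78.5 against 3.09, counted in 5 of 11 cells. Svil, an actin-binding protein, stood at 47.2 against 0.445, in 7 of 11, and Trh, a neuropeptide precursor, at 53.3 against 0.305, in 4 of 11. Nr4a2 stood at 82.1 against 39.5 CPM, counted in 7 of 11 cells. Zfpm2, a transcriptional cofactor, was the companion with lower CPM in the class, at 12.9 against 26.0. In the class led by Rprm and Syt6, Nr4a2 at 129 CPM, Hs3st4 at 204 CPM and Zfpm2 at 56.6 CPM were above their companion-rich class levels. Nxph3, Drd1, Lpar1, Svil and Trh were lower there than in the companion-rich class.

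Relatives of the layer 6b genes stood at mixed levels. Of the complexins, Cplx1 stood at 1154 CPM in the class and 1085 outside and Cplx2 at 69.9 and 257. Among the neurexophilins, Nxph2 had 0 counts in the class. The CCN protein Ccn1 stood at 62.5 CPM against 15.7, from 4 of 11 cells, with 0 CPM in the class cells of animal 1 and 70.3 in those of animal 2. Pam, another copper monooxygenase, stood at 74.2 against 206 CPM. Slc30a3, the transporter that loads zinc into synaptic vesicles, stood at 1.23 against 254 CPM, and at 2.55 CPM in the class led by Rprm and Syt6. These relatives took part in the clustering, so no test is given for them.

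Markers of most other cell types were lower in the class than in the other cells. The astrocyte list had 4 of 4 genes at 0 counts and the meningeal list 3 of 3. Of the inhibitory markers, Gad1 was at 0 and Gad2 had 1 count in 1 cell. The oligodendrocyte list summed to 54.5 CPM in the class and 144 in the other cells, with 0 to 137 CPM per class cell. The mural list was higher, at 12.3 CPM against 6.34, all of it from 20 counts of Rgs5 in 1 cell. For the neighbouring deep layers, Osr1, Oprk1 and Car12 of the layer 6 IT list (intratelencephalic neurons, which project within the forebrain) were at 0. The corticothalamic list was mixed against the other cells together. Rprm was at 0 and Crym stood at 93.2 CPM against 169, while Foxp2 stood at 4.29 against 2.80 CPM, counted in 2 class cells, and Syt6 at 4.90 against 2.71 CPM, counted in 1. All 4 genes were higher in the class led by Rprm and Syt6, with Foxp2 at 35.7, Syt6 at 43.8, Rprm at 428 and Crym at 423 CPM.

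Outside the companion-rich class, Ccn2 and Tmem163 had classes of their own. Sums of at least 10 cells per animal could be fitted for 9 classes, with 3 of the 5 genes passing the filter on low counts (Cplx3, Ccn2 and Tmem163; Nxph4 and Moxd1 were left out). Ccn2 was called higher in the corticothalamic-like class of 71 cells, led by Rprm, Syt6 and Hs3st4, as 1 of 3 genes tested, beside 3.14% of 13527 genes called higher. It was counted in 16 of its 71 cells (22.5%) and stood at 5.58, 9.54 and 31.2 CPM in animals 1, 2 and 3, or 15.4 ± 13.8 CPM (SD, n = 3), a log2 fold change of 4.58 with an adjusted p of 0.00618 by edgeR. The other classes in that fold include class 2 with 0 Ccn2 counts and classes 7, 8 and 9 with 2, 3 and 3, which raises it. Summed over cells, Ccn2 stood at 20.6 CPM in this class. The next highest fitted classes were class 1 at 3.18 and class 4 at 3.13 CPM. Without animal 2 the log2 fold change was 4.65 (adjusted p 0.0532 by edgeR) and without animal 3 it was 3.36 (adjusted p 0.218 by edgeR), so the call was lost in both fits. In the class of 11 cells led by Kcnip1, Pvalb and Nxph1, Ccn2 had counts in 4 cells at 22.4 CPM, with no test.

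Tmem163 was called higher in 2 classes with C1ql2 as their leading gene, compared after seeing the data. In class 4, led by C1ql2, Nrtn and Pvalb, it was counted in 22 of 77 cells (28.6%) and stood at 24.3, 9.16 and 11.9 CPM in animals 1, 2 and 3, or 15.1 ± 8.0 CPM (SD, n = 3), with an adjusted p of 0.00217 by edgeR. In class 7, led by C1ql2, Qrfpr and Mc4r, it was counted in 27 of 63 cells (42.9%) and stood at 22.9 and 34.3 CPM in animals 1 and 2, with an adjusted p of 0.00228 by edgeR. The shares of all genes called higher were 3.06% in class 4 and 1.8% in class 7. Both calls were kept under every alternative fitted. Class 7 had sums from 2 animals only, so it could not be fitted without animal 1 or without animal 2. Neither class was fitted under another clustering. Tmem163 had 0 counts in the 71 corticothalamic-like cells and in the 73 layer 6 IT-like cells, led by Penk, Oprk1 and Osr1. In the IT-like class edgeR called 0 of 3 genes, with 0 at an unadjusted p under 0.05, and DESeq2 called 0, with 1 at an unadjusted p under 0.05, beside 4.44% of all genes called in either direction.

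**Figure D2:**
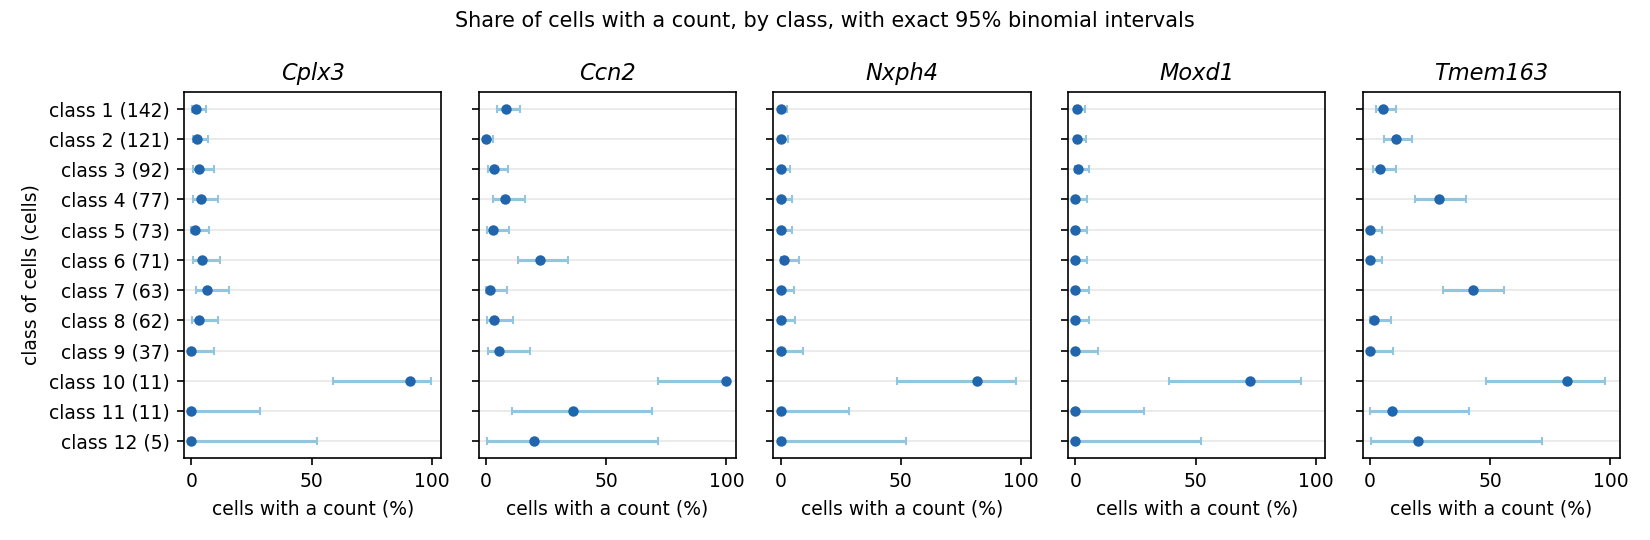
Share of cells with a count of each layer 6b gene (x axis, percent) in the 12 classes (y axis, with their number of cells); bars are exact 95% binomial intervals. The companion-rich class, class 10, is at 72.7% or more for all 5 genes, Ccn2 reaches 22.5% in class 6 and 36.4% in class 11 (4 of 11 cells), and Tmem163 reaches 28.6% in class 4 and 42.9% in class 7.

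A further 5 cells were led by oligodendrocyte genes, Mog and Mag among them, with Slc17a7 counts in all 5. They had 0 counts of Cplx3, Nxph4 and Moxd1, 1 cell with 1 count of Ccn2 and 1 cell with 22 counts of Tmem163. So few cells do not set a background level for the 5 genes.

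Along the dissection, cells of the companion-rich class came from the anterior and medium levels. It held 6 of 256 anterior cells, 5 of 217 medium cells and 0 of 292 posterior cells, and the last allows a share of up to 1.03%. Over animals, the class took 2.31% ± 2.36 of anterior, 3.61% ± 4.44 of medium and 0% of posterior cells (SD, n = 3). Posterior and anterior shares did not differ beyond the spread of animals (two-sided exact permutation test, p = 0.4; adjusted over 12 such tests 0.96). With 3 animals a level, the smallest p that test allows is 0.1. Since the levels come from the same 3 animals, the shares were also permuted within each animal, a test added after seeing the data, which allows no p under 0.25. That exact permutation test gave p = 0.5, with the posterior share lower in 2 of 3 animals, and an adjusted value of 1 for each of the 12 tests.

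In animals 1 and 2 Cplx3 was highest at the level that held most cells of that class. In animal 1 Cplx3 stood at 4.15 CPM anterior, 245 medium and 3.54 posterior, and in animal 2 at 89.6, 21.3 and 4.62 CPM. In animal 3 it stood at 0.260 CPM anterior, 0 medium and 0.245 posterior. The posterior level was lower than the anterior one in each of the 3 animals, by little in animals 1 and 3, while the values of both levels overlap across animals. Ccn2 stood at 3.88, 147 and 1.06 CPM in animal 1, 35.0, 7.94 and 1.13 in animal 2, and 1.69, 7.70 and 2.11 in animal 3. Its share of cells was 3.81% ± 0.93 posterior and 9.90% ± 4.77 anterior (SD, n = 3), lower in the posterior level of 3 of 3 animals, at the smallest p each exact permutation test allows (0.1 over animals, adjusted over 12 tests 0.96; 0.25 within animals).

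Nxph4 had 0 counts in posterior cells of every animal, and Moxd1 had 1 count in 1 posterior cell. In animal 2 Nxph4 stood at 3.24 CPM anterior and 0.641 medium, and in animal 1 at 0.277 and 5.33 CPM. Moxd1 stood at 14.5 and 1.04 CPM in animal 2 and at 0 and 14.7 CPM in animal 1. The higher level was thus anterior in animal 2 and medium in animal 1, for both genes.

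Tmem163 had the largest share of its cells in the posterior level. It was counted in 48 of 292 posterior cells (16.4%), 22 of 256 anterior cells (8.59%) and 16 of 217 medium cells (7.37%). The posterior share was higher than the anterior share in 3 of 3 animals, with 16.5% ± 5.6 against 8.22% ± 3.54 (SD, n = 3; exact permutation test, p = 0.2, adjusted over 12 tests 0.96; within animals p = 0.25). All 63 cells of class 7 were posterior, 21 from animal 1, 41 from animal 2 and 1 from animal 3, and they held 27 of the 48 posterior cells with Tmem163. Its CPM was 8.31, 40.6 and 10.99 at the anterior, medium and posterior level of animal 1, 12.9, 5.77 and 16.6 in animal 2, and 3.04, 4.38 and 3.19 in animal 3.

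Between levels, no layer 6b gene passed the test over all genes. For posterior against anterior, edgeR called 0 of 4 genes tested, with Moxd1 alone at an unadjusted p under 0.05, and DESeq2 called 0, with 0 unadjusted, beside 0.103% of 13628 genes called. Cplx3 and Moxd1 passed the filter on low counts only with the cells of the companion-rich class in the sums, so no conclusion is drawn from their level fits. The log2 fold change was -3.33 for Cplx3 (SE 1.51, adjusted p 0.856), -2.41 for Ccn2 (SE 1.40, adjusted p 0.976) and 0.25 for Tmem163 (SE 0.58, adjusted p 1.00) by edgeR. Without animal 2 it was -0.39 for Cplx3 and -0.24 for Ccn2, and with sums per sample it was -1.16 for Cplx3. For medium against anterior both tools called 0 of 4, with 0 at an unadjusted p under 0.05, beside 0.00734% of all genes called. Of the companions, edgeR called 0 of 12 tested in either comparison; at an unadjusted p under 0.05 there were 2 for posterior and 1 for medium by edgeR and 4 and 3 by DESeq2, which also called 0. Without the companion-rich class, the posterior log2 fold change was -0.93 for Ccn2 (SE 0.89, adjusted p 0.999) and 1.03 for Tmem163 (SE 0.74, adjusted p 0.999) by edgeR. Cplx3, Nxph4 and Moxd1 were then too low to be tested.

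**Figure D3:**
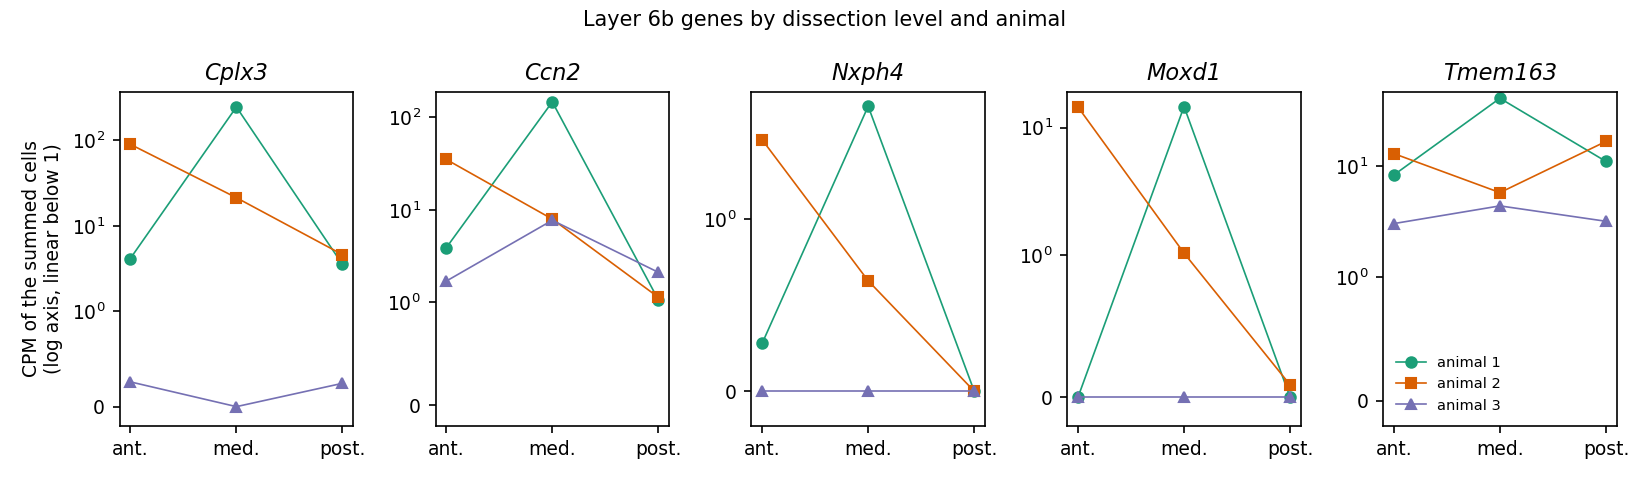
CPM of the summed cells of each animal (y axis, logarithmic above 1 and linear below) at the anterior, medium and posterior level (x axis) for each layer 6b gene, with 1 line per animal. Cplx3, Ccn2, Nxph4 and Moxd1 peak at the medium level in animal 1 and at the anterior level in animal 2, and Nxph4 and Moxd1 stay at 0 in animal 3.

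In the sections, all 5 genes were counted in both. Cplx3 was counted in 124 spots of S4 and 96 of S8, Ccn2 in 118 and 112, Tmem163 in 127 and 96, Moxd1 in 55 and 35, and Nxph4 in 16 and 19. Spots were grouped into 9 areas without the 5 genes, 8 of them present in both sections. Area 6 had the highest mean standardised level of the companion list and also of the corticothalamic list, so both planned comparisons are 1 comparison. It held 240 spots and was led by Foxp2 and Syt6. The summed CPM of the companion list was 745 there in S4 and 681 in S8, against 764 and 540 in area 4 and at most 479 and 493 in the rest. A second area of 242 spots, area 4, was led by Defb1, Cyp26b1, Rai14 and Oprk1. Comparisons of areas other than area 6 were added after seeing the data.

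In the Foxp2 and Syt6 area, Cplx3 and Ccn2 were called higher, 2 of 4 genes tested, beside 1.7% of 10609 genes called higher. Cplx3 stood at 66.0 CPM in S4 and 83.1 in S8, a log2 fold change of 2.48 (SE 0.21) against the mean of the other areas, with an adjusted p of 3.31e-11 by edgeR. Ccn2 stood at 65.0 and 82.0 CPM, a log2 fold change of 2.43 (SE 0.21), with an adjusted p of 5.71e-11 by edgeR. Cplx3 was higher there than in every other area of both sections. Nxph4 was too low to be tested, and 8 of its 17 counts in S4 and 11 of its 20 in S8 lay in this area, at 7.65 and 12.5 CPM.

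Moxd1 and Tmem163 were not called in that area. The log2 fold change was -0.10 for Moxd1, with a 95% interval from -1.40 to 1.19, and 0.44 for Tmem163, with an interval from -0.13 to 1.01. Differences of more than 1 log2 unit lower or higher are thus within the interval of Moxd1. The oligodendrocyte list summed to 4928 CPM in S4 and 6227 in S8 in this area, above all other areas, and 4 of its 4 genes were called higher. Its part in the levels of Cplx3 and Ccn2 was not tested.

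Companions and relatives were mixed in area 6. Of 9 companions tested, 5 were called higher in area 6 (Lpar1, Hs3st4, Nxph3, Sulf1 and Zfpm2) and 0 lower, with a median log2 fold change of 1.66 beside 0.01 over all genes; the companions took part in choosing the area. Ccn1 had a log2 fold change of 1.64 (SE 0.22) and Cplx1 of 0.19 (SE 0.10). Slc30a3 had a log2 fold change of -1.32 (SE 0.19). Among cells, its CPM was low both in the companion-rich class and in the corticothalamic-like class, at 1.23 and 2.55.

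In the Rai14 and Oprk1 area, 3 of 4 layer 6b genes were called higher, beside 0.735% of all genes called higher. Ccn2 stood at 69.1 CPM in S4 and 57.4 in S8, a log2 fold change of 2.25 (SE 0.22, adjusted p 7.64e-09 by edgeR). Moxd1 stood at 14.5 and 14.4 CPM, a log2 fold change of 1.76 (SE 0.43, adjusted p 0.00979 by edgeR). Tmem163 stood at 26.8 and 26.5 CPM, a log2 fold change of 1.03 (SE 0.27, adjusted p 0.0205 by edgeR), and its call was lost without the section as a block (adjusted p 0.0663). Cplx3 stood at 34.6 and 22.1 CPM, a log2 fold change of 0.94 (SE 0.28, adjusted p 0.0422 by edgeR), which is under the fold needed for a call. Its oligodendrocyte list summed to 1151 and 1044 CPM, and Ccn3, a further CCN protein, was called higher at a log2 fold change of 1.30 (SE 0.11).

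Set against each other, the areas differed for Cplx3. The log2 fold change of area 4 against area 6 was -1.35 for Cplx3, with an adjusted p of 0.0010 by edgeR and 0.0687 by DESeq2, so DESeq2 made no call. Ccn2 differed by -0.16 (adjusted p 0.80), Tmem163 by 0.51 (adjusted p 0.50) and Moxd1 by 1.63 (adjusted p 0.102) by edgeR, none of them called, beside 3.47% of all genes called in this comparison.

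The choice between these areas by the companion list depended on the clustering. At resolution 0.5 the companion-rich area held 227 spots, 220 of them from area 6. At resolution 2 it held 84 spots, of which 80 came from area 4 and 1 from area 6. In those 84 spots both Cplx3 (log2 fold change 2.02, SE 0.34, adjusted p 1.10e-05 by edgeR) and Ccn2 (2.91, SE 0.27, adjusted p 9.30e-16 by edgeR) were called higher, while Nxph4 and Moxd1 were too low to be tested and Tmem163 was not called (1.09, SE 0.44, adjusted p 0.219). With the 5 genes kept in the clustering it held 153 spots, of which 145 came from area 4. There the log2 fold change was 1.18 for Cplx3 (SE 0.29), 2.70 for Ccn2 (SE 0.23), 1.75 for Moxd1 (SE 0.48) and 0.79 for Tmem163 (SE 0.35). The genes helped to draw those spots, so these values are a description with no test.

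Elsewhere in the sections the genes went separate ways. In area 2, led by Trh, Dlk1 and Calb2, Moxd1 was called higher, at 13.1 CPM in S4 and 11.3 in S8 (log2 fold change 1.46, SE 0.42, adjusted p 0.0166 by edgeR, 0.130 by DESeq2), while Cplx3 and Ccn2 were called lower there at -1.85 and -1.60. These are 3 of 4 genes, beside 4.6% of all genes called. In area 5, led by Myl4 and Scn4b, Tmem163 was called higher at 29.9 and 32.0 CPM (log2 fold change 1.23, SE 0.26, adjusted p 0.00692 by edgeR), the highest level of Tmem163 in either section, beside 0.32% of all genes called. DESeq2 (adjusted p 0.143) and the fit without the section block (adjusted p 0.0560) did not keep that call. In area 1, led by Agmat and Stard8, Ccn2 was called lower at a log2 fold change of -1.65 and Tmem163 at -1.03, the latter lost under DESeq2 (adjusted p 0.279) and without the block (adjusted p 0.0930), beside 208 of 10609 genes called (1.96%). In area 8, led by Rspo1 and Scn7a, Ccn2 was called lower at -1.69 (SE 0.49, adjusted p 0.0394 by edgeR), again lost under DESeq2 (adjusted p 0.195) and without the block (adjusted p 0.126), beside 1.56% of all genes called. In area 7, led by the meningeal genes Ogn and Slc13a4, Ccn2 reached a log2 fold change of 1.06 (SE 0.34, adjusted p 0.0601 by edgeR) and was not called.

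**Figure D4:**
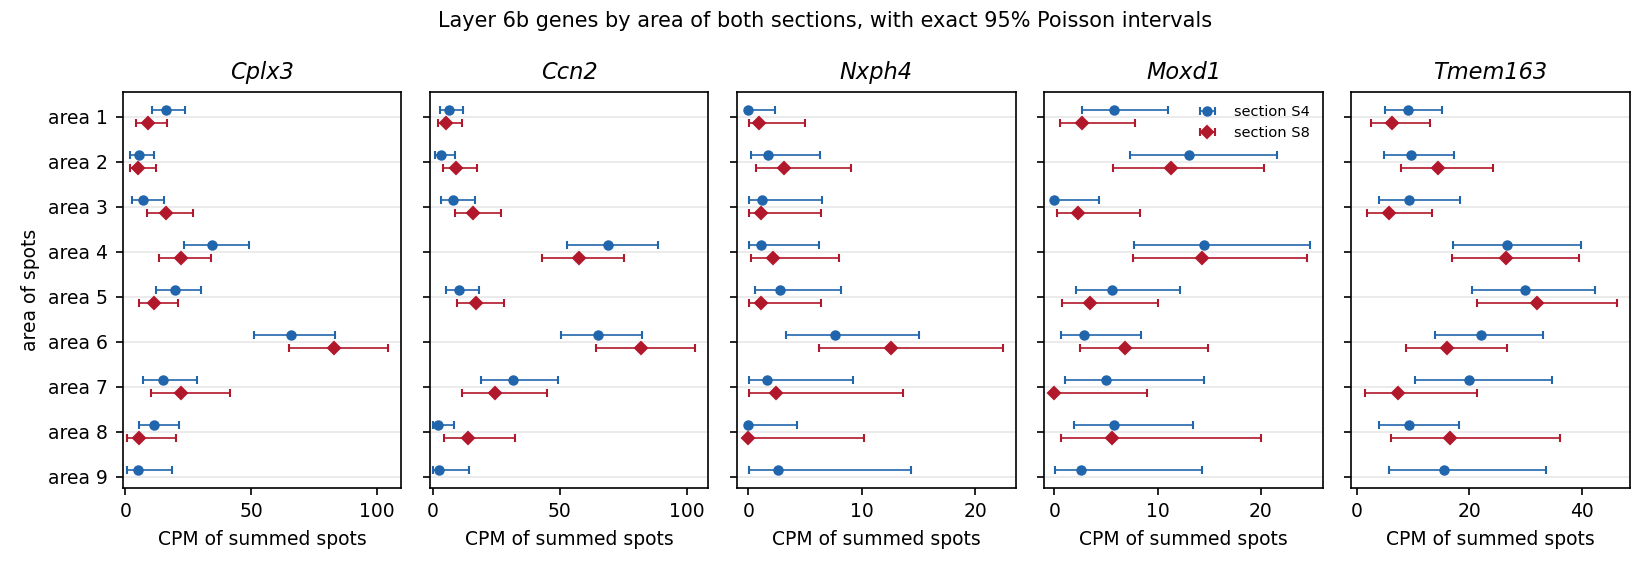
CPM of the summed spots (x axis) of each layer 6b gene in the areas of both sections (y axis), with exact 95% Poisson intervals; circles are S4 and diamonds S8, and area 9 had spots in S4 alone. Cplx3 and Nxph4 are highest in area 6, Ccn2 is high in areas 4 and 6, and the highest values of Moxd1 lie in area 4 and of Tmem163 in area 5.

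Pairs that shared cells shared spots unevenly. Cplx3 and Ccn2 were counted together in 42 spots of S4 and 30 of S8, where the products of their shares give 14.3 and 11.3. Cplx3 and Nxph4 shared 5 and 6 spots against 1.94 and 1.92. Cplx3 and Moxd1, which shared 8 cells, shared 6 and 3 spots against 6.67 and 3.53, and Cplx3 and Tmem163 shared 9 and 11 against 15.4 and 9.69. Ccn2 and Moxd1 shared 13 and 6 spots against 6.35 and 4.12. No spot had all 5 genes. Spots with 2 or more of the genes made up 18.5% of area 6 in S4 and 22.4% in S8, 26.4% and 9.56% of area 4, and 2.90% and 2.29% of all other spots.

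Within area 6 alone, Cplx3 and Ccn2 shared 19 spots of S4 and 19 of S8, against products of 9.29 and 11.2. Nxph4 was counted there in 7 and 10 spots, of which 3 and 5 also had Cplx3. Thinned to 4000 counts a spot, Cplx3 was counted in 18.03% of area 6 in S4 and 20.5% in S8, and Ccn2 in 12.3% and 19.6%.

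Genes with the most similar pattern were ranked by Pearson r of log2 levels, over 765 cells and among 11820 genes. Cacng5, a subunit of AMPA receptor complexes, ranked first for Cplx3 (r = 0.63) and Ccn2 (r = 0.48), Clic5 for Nxph4 (r = 0.68) and Lsp1 for Moxd1 (r = 0.60). These genes were counted in 10, 10 and 14 cells, of which 7, 7 and 8 were in the companion-rich class, so the values rest on the same few cells. Among the layer 6b genes themselves, r was 0.84 for Moxd1 with Nxph4 and 0.32 for Cplx3 with Tmem163. For Tmem163 the first gene was Gprc5b (r = 0.33), which had 0 counts in the class. Over 1973 spots the values were low: the first genes were Hs3st4 for Cplx3 (mean r of the sections 0.21) and for Ccn2 (0.23), Arhgap25 for Nxph4 (0.15), Crhbp for Moxd1 (0.13) and Pcp4 for Tmem163 (0.13). Depth is shared by all genes of a cell or spot, and no p is given.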

How the data were processed

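Counts of cells and spots were used as deposited by the authors: the values show whole numbers per gene whose totals vary, with no normalization. Per the submitters' processing notes, Seurat was used for the cells with the build NCBIM37, and Seurat and Space Ranger for the sections with NCBIM37 and mm10; the aligner, the cell filter and whether the cell counts are reads or molecules are not given in the sources used here. Strand-specific counting is not stated. Of the count columns, 0 were without a sample. Which labelled section is S4 or S8 was not used.

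Classes and areas were drawn with scanpy 1.11.5 (Python 3.11.15) from 2000 variable genes without the 5 layer 6b genes, with 30 principal components, 15 neighbours and Leiden resolution 1; spots were centred within their section. No doublet caller was run. Counts were summed per animal or section, with at least 10 cells or spots a sum, and compared by the quasi-likelihood test of edgeR 4.0.16 (R 4.3.3; TMM scaling, filterByExpr for low counts, Benjamini-Hochberg adjustment over all genes), with the animal or section as a block, after a check on simulated data. DESeq2 1.42.0 was an alternative. The block follows the animal or section of each sum, not the numbers in the sample titles. Each SE equals the absolute log2 fold change over √F, with F from that test. Shares carry exact Clopper-Pearson 95% intervals in the plots. Labels do not say which slices a sample pools. With 2 sections, p-values of areas measure how far those sections disagree on the differences between areas.

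The 5 genes, the gene lists and the tests were chosen with earlier results of these data known. The genes were always named; likeness was the Pearson r of log2(CPM + 1) over cells, or of log2(counts per 10000 + 1) within sections, for genes with a count in at least 10 cells or 20 spots of each section, leaving out predicted, ribosomal and mitochondrial genes. The single values of some genes of these lists are not reported here.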

Additional observations from a re-analysis of the deposited data

How the results depend on the processing

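Calls of Cplx3 and Ccn2 in the Foxp2 and Syt6 area were kept under every alternative with a test, at log2 fold changes of 1.94 to 2.56 and 1.83 to 2.71. With the 5 genes kept in the clustering they helped to draw the area, so those values are a description with no test. The number of genes called in the Foxp2 and Syt6 area was 337, and 290 at resolution 2 and 343 with the 5 genes kept in. With these settings the companion list chose other spots, mostly of area 4, where 106 and 152 genes were called and Cplx3 had a log2 fold change of 2.02 and 1.18. For posterior against anterior 14 genes were called, against 108 with DESeq2, 49 with sums per sample and 1 to 10 without 1 animal; for medium against anterior 1 was called, against 12 with DESeq2 and 1 to 2 without 1 animal. No layer 6b gene was called in these fits. Without replicate block the posterior count was 1, and the medium log2 fold change of Moxd1 became -0.16; the block pairs the levels of an animal or the areas of a section. In the medium comparison, leaving out 1 animal gave -2.00 to 4.21 for Cplx3, -0.72 to 3.99 for Ccn2, -3.56 to 0.79 for Moxd1 and -0.24 to 1.36 for Tmem163, with none called and each negative value without animal 1; the medium cells of animal 1 held 3 of the 11 cells of the companion-rich class. Genes called in the layer 6 IT-like class were 601, and 375 to 414 without 1 animal; in the corticothalamic-like class they were 738, and 494 to 570 without 1 animal. In the companion-rich class tested on sums of at least 4 cells, 1157 genes were called, and 702 without animal 1. The share of its cells with 3 or more layer 6b genes was 90.9%, and 85.7% to 100% without 1 animal. The share of cells with 2 or more was 2.35%, and 1.31% at 5 or more counts, 1.30% to 3.73% without 1 animal and 0.928% without the class. For spots it was 6.54%, and 1.37% at 2 or more counts and 2.72% after thinning to 4000 counts. Of 340 recomputed values for single genes, 285 kept their direction and side of the threshold or moved within their error, 32 moved further, 18 lost the call and 5 reversed. Nxph4, in 16 and 19 spots of the sections, was too low there for a test. Thinning cells to 50000 counts moved the share with a count from 4.18% to 2.27% for Cplx3, 7.84% to 5.97% for Ccn2 and 11.2% to 9.09% for Tmem163. For each gene, absence below 0.392% of cells was not detectable.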
